A study of Mus musculus with 6 samples.

Results

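DNA methylation was examined at the genes of the TGF-beta, BMP and FGF signalling pathways in mouse quadriceps muscle. The genes were chosen by symbol from a deposited table of single cytosines in 3000 bp regions that each carry the identifier of a RefSeq transcript. A region was taken when its symbol began with Bmp, Tgfb, Gdf and a digit, Inha or Inhb, Smad and a digit, Acvr, Ltbp, Fgf and a digit, Fgfr, Grem or Chrd, or was Nog, and when it held at least 3 measured positions. This gave 68 of the 10021 regions with at least 3 positions, from 65 genes, with 2629 of the 268725 listed positions. Of 70 regions whose symbol matched, Fgf17 with 1 position and Fgf14 with 2 were left out. The rule itself used no methylation value, but it was chosen with earlier results of these data known.

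The study measured methylation by reduced representation bisulfite sequencing (RRBS), in which DNA is cut with a restriction enzyme, size-selected and treated with bisulfite, so that only methylated cytosines still read as C. Genomic DNA came from C57BL/6 mice, 3 samples of animals given treadmill training over 4 weeks (exercised) and 3 of sedentary controls. The muscle of exercised mice was taken 3 hours after the last bout. The labels name neither the sex, the age nor the number of animals per sample, so p-values measure the spread between samples, which may be technical. In whole muscle, a different mix of cell types and a different methylation within 1 cell type cannot be told apart.

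TGF-beta, the BMPs, the growth and differentiation factors (GDFs) and the activins are secreted ligands that bind pairs of type I and type II receptor kinases, which phosphorylate Smad transcription factors. Latent binding proteins hold TGF-beta in the matrix, and antagonists such as noggin and chordin trap BMPs outside the cell. Most FGFs bind receptor tyrosine kinases that signal through the adaptor Frs2 to the Ras and MAP kinase pathway. In skeletal muscle these pathways are known for their part in muscle mass, satellite cell activity and fibrosis, and cytosine methylation near a start site is often, though not always, found with low transcription.

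Promoter sequences of 3 of these genes are printed first, since the level of a cytosine in these regions went with the 4 bases around it. Each stretch is the 250 bases before the annotated start site, read 5′ to 3′ on the gene's strand from RefSeq (GRCm38.p6), with every CCGG in capitals. CCGG reads the same on both strands. Bmp2k, a kinase named for its induction by BMP-2, is shown as the stretch with the most measured cytosines of the 3, and Fgf6, an FGF made largely in skeletal muscle, as the FGF ligand with the highest region level. Acvr2a, a type II receptor of activins and myostatin, is shown because the sign of its difference turned when stand-alone positions, described below, were left out. This was not particular to Acvr2a: the sign also turned in other member regions, among them Bmp2, Gdf7, Smad9, Tgfbr2 and Ltbp1. Bmp2k and Acvr2a were picked after their values were seen. The stretches lie at chr5:96997439-96997688, chr6:127015292-127015541 and chr2:48813859-48814108, all on the forward strand.

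Bmp2k: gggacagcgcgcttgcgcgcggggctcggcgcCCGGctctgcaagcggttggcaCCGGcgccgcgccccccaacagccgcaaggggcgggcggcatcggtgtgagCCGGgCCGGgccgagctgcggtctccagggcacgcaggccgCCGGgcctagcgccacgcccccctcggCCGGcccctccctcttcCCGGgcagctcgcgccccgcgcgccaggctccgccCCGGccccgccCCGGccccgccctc

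Fgf6: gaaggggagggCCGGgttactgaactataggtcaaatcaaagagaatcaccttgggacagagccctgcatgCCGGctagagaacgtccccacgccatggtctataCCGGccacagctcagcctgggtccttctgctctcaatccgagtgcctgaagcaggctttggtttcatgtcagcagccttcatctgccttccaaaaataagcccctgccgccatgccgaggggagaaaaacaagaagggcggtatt

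Acvr2a: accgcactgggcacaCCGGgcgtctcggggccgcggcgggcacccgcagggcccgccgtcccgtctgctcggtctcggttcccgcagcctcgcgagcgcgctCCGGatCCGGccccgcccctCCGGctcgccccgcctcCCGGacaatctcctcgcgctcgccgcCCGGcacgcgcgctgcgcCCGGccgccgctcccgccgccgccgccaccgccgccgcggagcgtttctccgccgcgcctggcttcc

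In Bmp2k, 49 cytosines of this stretch were measured, on either strand. The 13 in a CCGG had mean levels over the 6 samples of 11.7% to 100%, with a median of 77.4%, while the 36 at other CpGs were all between 0% and 6.17%. In Acvr2a the 4 measured cytosines in a CCGG had levels of 14.3% to 100%, and the 6 elsewhere 0.439% to 9.81%. In both stretches the measured cytosines outside CCGG thus had low levels. The Acvr2a stretch holds 49 CpGs and only 10 of its cytosines were measured, so most of it was not seen. Fgf6 differed in kind. Its 5 CCGG cytosines had levels of 47.4% to 99.0%, and its 4 other CpG cytosines were also methylated, at 31.0% to 52.4%.

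The same split held over the promoters that could be aligned. The promoter window (300 bases) of a member was placed on the measured positions by the pattern of its CpGs. By the scoring rule given under processing, 22 of the 50 member regions with an entry could be placed. In 16 of the 22 the start site lay exactly 2000 bases into the region. Of 106 measured cytosines in a CCGG, 96.2% had a level of at least 10%, and the median level was 64.2%. Of 323 at other CpGs 2.79% did, and the median was 1.39%. Over all 2583 placed regions the shares were 97.2% and 5.05%, so the split was not particular to these genes. A CCGG was present in 43 of the 47 member promoters in the RefSeq table (91.5%), in 52.6% of all 27025 promoters of the same length, and in 87.1% of the 7754 promoters whose gene had a region of at least 3 positions. Members entered only because their region was measured, and their promoters held a median of 26 CpGs, against 23 for those 7754 and 7 for all.

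The 2 strands of a CCGG did not have like levels. Among the 39 member CCGG sites measured on both strands, the median level was 98.2% on the higher strand and 19.3% on the lower, and 28 of the 39 differed by at least 50 percentage points. Among 110 CpGs outside CCGG the medians were 1.92% and 0.841%, and 1 pair differed by that much. Over all placed regions 2800 of 4131 CCGG pairs differed by at least 50 points, with medians of 96.7% and 21.3%, so the gap between strands was found across the table. CCGG is the sequence cut by MspI, the enzyme used in most RRBS protocols; the labels cite a published protocol and do not name the enzyme. The part of library preparation in these levels was not tested. The CCGG cytosines of the members averaged 60.2% ± 1.12 (SD, n = 3) in exercised and 60.7% ± 0.740 in sedentary samples, and their other CpG cytosines 2.94% ± 0.378 and 3.03% ± 0.245. Both differences were smaller than the SD within a group.

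**Figure D1:**
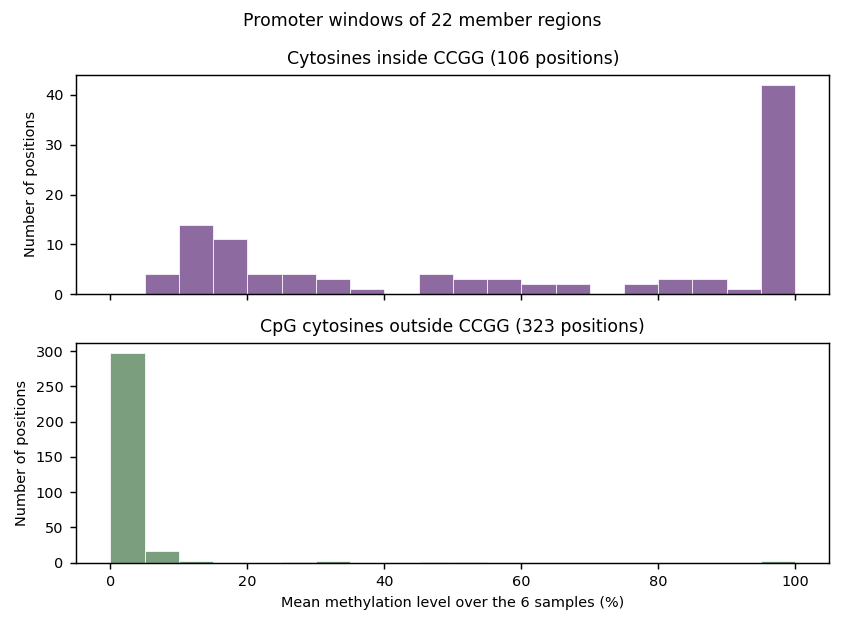
Histograms of the mean methylation level over the 6 samples (x axis, percent) of single cytosines in the promoter windows of 22 member regions, for 106 cytosines in a CCGG (top) and 323 at other CpGs (bottom). The y axes count positions and differ in scale. The CCGG cytosines spread from under 10% to 100%, with a peak near 100%, and nearly all others lie under 5%.

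Region levels therefore have to be read with these sites in view. The level of a region is the share of its reads, over all listed positions, that were methylated. Over all positions the 68 regions had levels of 3.45% to 92.8%, with a median of 21.1% (all 10021 regions, 21.98%), and 57 of the 68 lay between 10% and 30%. A position was called stand-alone when its mean level was at least 10% while the median of the other listed positions within 50 bp was under 10%. Of the 778 member positions at 10% or more, 610 (78.4%) were stand-alone, against 78.5% over all regions. Without them the median member level was 2.95% (all regions, 2.83%). The rule picks positions by their level and so lowers a region by construction, and it was chosen after the data were seen. It also misses some CCGG-dense stretches: Bmp2k kept a level of 7.81%. A position with no other listed position within 50 bp could not be stand-alone, so sparsely measured regions can keep such sites. With the average of the other positions in place of their median, 147 member positions were stand-alone and the median member level was 17.8% (all regions, 17.6%). Values without stand-alone positions use the median unless the average is named.

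Without stand-alone positions, 43 of the 68 regions had a level under 5%, and 15 (22.1%) one of at least 10%, against 25.4% of all regions. The last of these 15 was Fgf4, at 10.7%, and the next region below was that of Fgfr3 with 30 positions, at 9.44%. The 15 were spread unevenly over the roles. They were 7 of 15 regions of BMP, GDF, activin and inhibin ligands, 5 of 13 of FGF ligands, 1 of 8 of TGF-beta ligands and latent binding proteins, 1 of 9 of TGF-beta family receptors and 1 of 2 of the other genes. None of the 7 regions of BMP antagonists and modulators, the 8 of Smad proteins or the 6 of FGF receptors was among them. Roles were assigned by symbol, and the difference between roles was not tested. Among the 15, the regions of Bmp10 and Fgfr1op2 and 1 region of Fgf12 rest on 3 positions each.

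**Figure D2:**
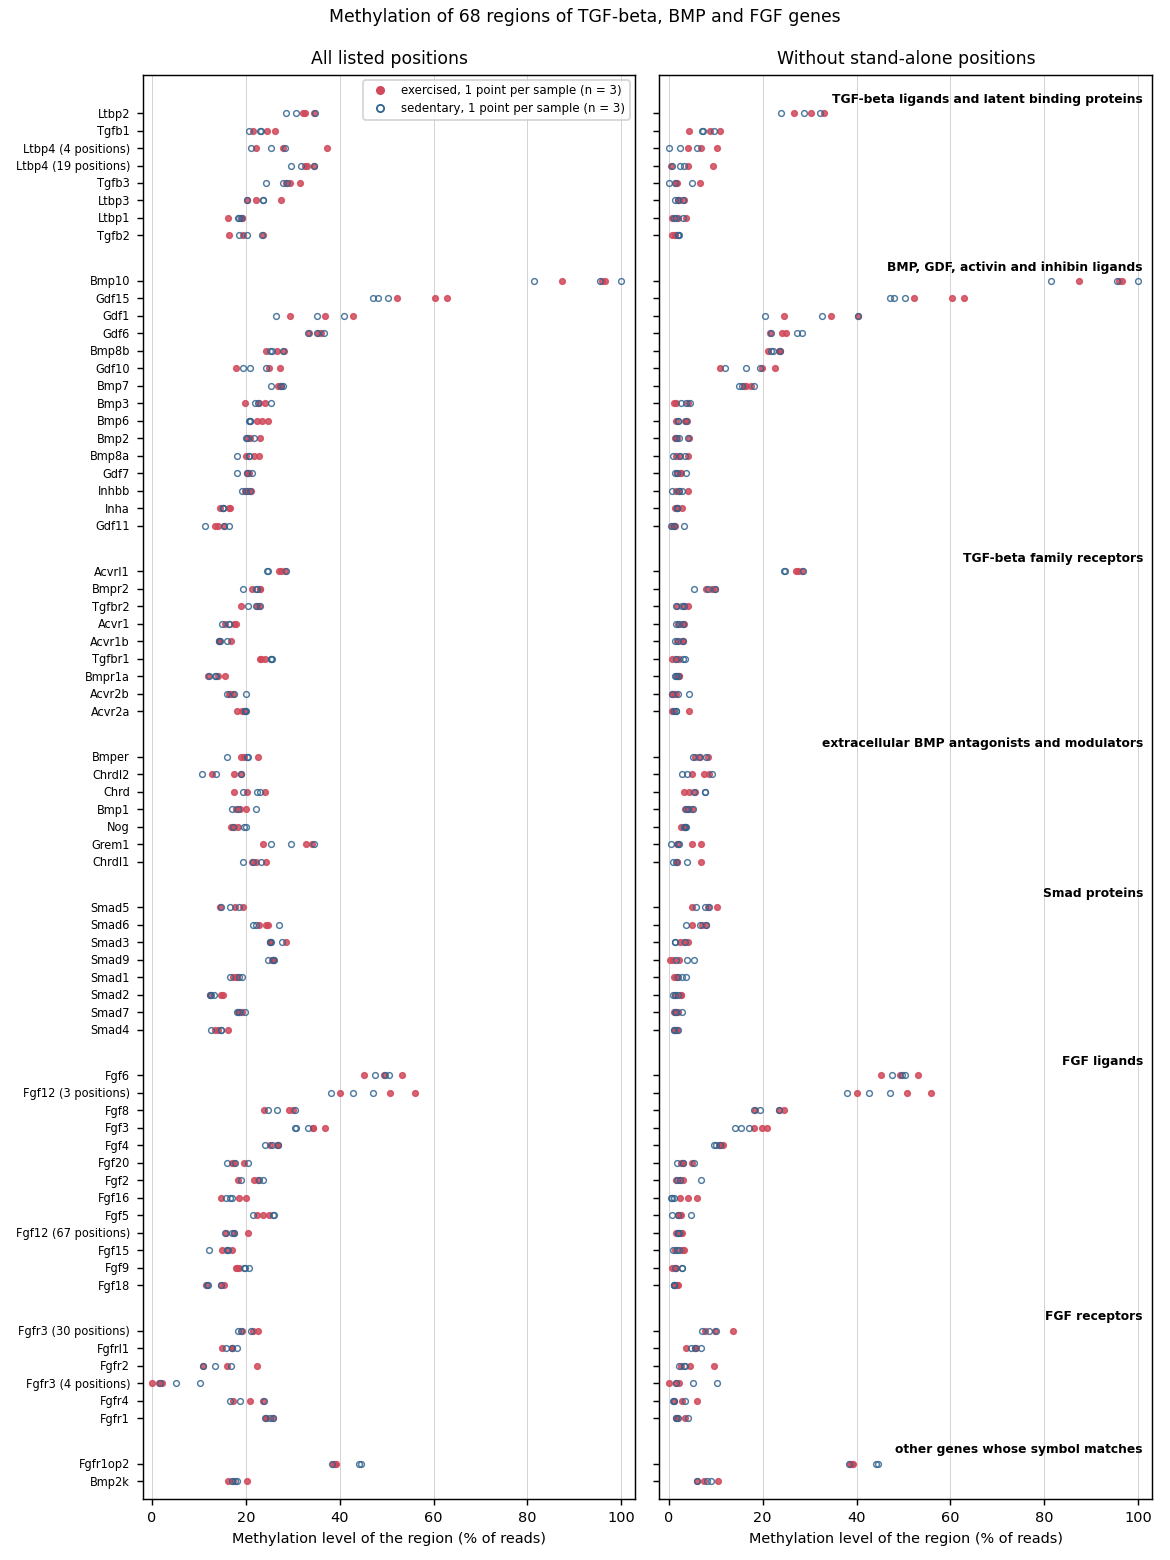
Methylation level of each of the 68 regions (x axis, percent of reads), 1 point per sample, with exercised samples filled and sedentary samples open, grouped by role. The left panel uses all listed positions and the right panel leaves out stand-alone positions. On the left most regions lie near 20%. On the right most fall under 5%, and Bmp10, Gdf15, Fgf6, Fgfr1op2 and the short Fgf12 region stay near or above 40%. Bmp10, Fgfr1op2 and that Fgf12 region have 3 positions each.

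Coverage and the sample totals bear on how far these levels can be read. Coverage counts summed over all positions ranged from 9153526 in sedentary sample 3 to 18656340 in sedentary sample 2. A read is counted in this sum at each listed position it covers, so the sum is not a number of reads. Every listed position had at least 10 reads in each sample, and member regions had a mean coverage of 23.9 to 80.2 reads per position. No 2 samples were alike to within sampling noise. A methylation table does not show expression, so the labelled tissue could not be checked by its transcripts. Of 17 skeletal muscle marker genes 4 had a region in the table, Acta1, Des, Myoz1 and Pvalb. The mean of these 4 per sample was 31.0% to 42.5% in exercised and 32.5% to 42.7% in sedentary samples. It joins unlike regions. Pvalb had 0% in exercised and 0.741% in sedentary samples, and Acta1 had 73.7% and 71.0%, each over 3 positions. Lists for 6 other cell types had median differences of -5.76 points (adipocyte, 2 of 4 genes) to 2.75 points (nerve and Schwann cell), and their part in the results was not tested.

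No member region passed the test for a difference between exercised and sedentary samples. With edgeR's quasi-likelihood test and Benjamini-Hochberg adjustment over all regions, 0 of 68 had an adjusted p under 0.05 (percent called over all 10021 regions, 0), and the smallest adjusted p of a member was 0.9998. At an unadjusted p under 0.05 it was 1 of 68, Gdf15, against 2.37% of all regions (1.46% higher in exercised samples), and limma on the percent level gave 3 of 68, all higher, against 1.71% of all regions in that direction. The exercised level was above the sedentary one in 46 regions and below it in 22, and the median difference was 0.55 percentage points. Among all 10021 regions 6117 lay above and 3904 below, and the median was 0.39 points. In 6 of 68 regions (8.82%) the 2 groups did not overlap, against 7.25% of all regions, a share near the background. The exercised samples lay above in 3 (4.91% of all regions) and below in 3 (2.35% of all regions).

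**Figure D3:**
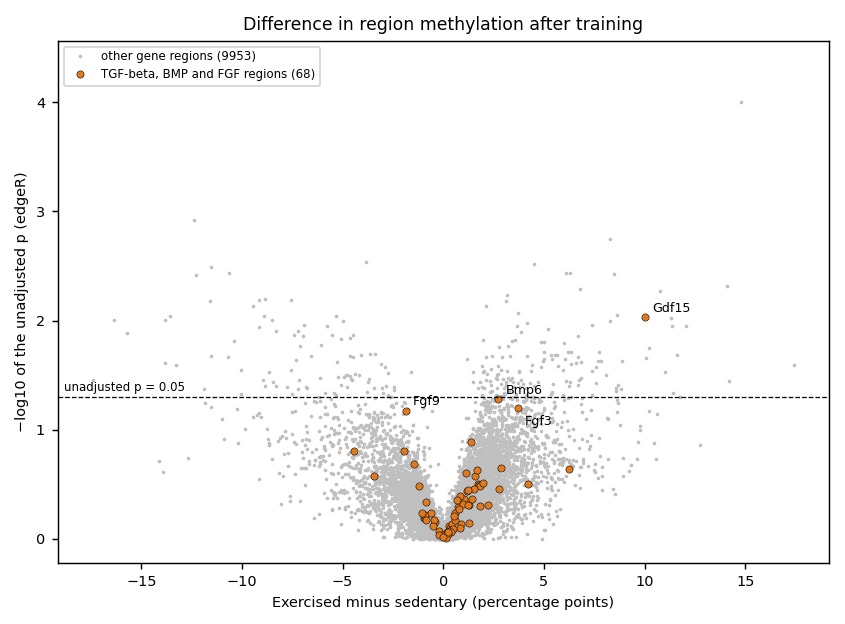
Difference in region level, exercised minus sedentary (x axis, percentage points), against −log10 of the unadjusted edgeR p (y axis), for the 68 member regions (orange) and all other regions (grey). Gdf15, at 10.02 points, is the only member above the dashed line, which marks the unadjusted threshold. The other members lie within the cloud of other regions.

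Among the secreted ligands, Gdf15 had the largest difference. It encodes a stress-induced hormone of the family that acts on the brainstem receptor Gfral. Its region (chr8:73154535-73157534, mm9, 8 positions) had levels of 52.3%, 60.3% and 62.9% in the exercised samples, in the order of their numbers, and of 48.0%, 47.1% and 50.3% in the sedentary ones. Every exercised sample was above every sedentary one. The means were 58.5% ± 5.53 and 48.5% ± 1.67, a difference of 10.02 points (SE 3.34), with an unadjusted p of 0.00936 by edgeR. None of its 8 positions was stand-alone. When the fit was made without the stand-alone positions of other regions, its values were the same and its unadjusted p was 0.139. With all positions weighted equally the difference was 7.16 points, with an unadjusted p of 0.104 by limma.

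Within Gdf15, 7 of 8 cytosines had levels of 35.4% to 82.9% and lay 221 to 285 bases after the start site, if the start is taken at 2000 bases into the region as in most placed promoters. At 285 bases the levels were 46.7%, 48.8% and 48.6% in exercised and 35.8%, 16.1% and 19.4% in sedentary samples. This was the 1 cytosine of the 8 at which the groups did not overlap, and edgeR gave it an unadjusted p of 0.153. The share of all listed cytosines without overlap was not worked out, so nothing is read from this count. At 222 bases the order was turned, with means of 75.3% ± 15.8 and 90.5% ± 10.7. The last cytosine, at 508 bases, had a level of 6.89%.

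Bmp10, a ligand made mainly in the heart's atria, had the highest level of the 68 regions. With 3 positions it had levels of 87.3%, 96.6% and 96.0% in exercised and 81.4%, 95.5% and 100% in sedentary samples. The sedentary range enclosed the exercised one, and the difference was 0.997 points (SE 6.35). Its 3 cytosines, 317 to 347 bases after the start site, had levels of 87.8% to 99.4%. The other ligands that kept 10% or more without stand-alone positions were Gdf1 (32.1%), Gdf6 (24.6%), Bmp8b (22.7%), Gdf10 (16.9%) and Bmp7 (16.4%), in all of which the groups overlapped.

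Bmp6, which drives hepcidin in iron control, had levels of 24.8%, 23.5% and 22.3% in exercised and 20.9%, 20.6% and 20.8% in sedentary samples. The groups did not overlap, and the difference was 2.73 points (SE 0.725, unadjusted p 0.0527 by edgeR). All 8 of its positions at 10% or more were stand-alone. Without them the levels were 2.95% ± 1.32 and 2.55% ± 0.948, and the difference was 0.401 points. It was 1.64 points with stand-alone positions taken by the average and 0.579 points with all positions weighted equally. The other 7 regions of these ligands, those of Bmp2, Bmp3, Bmp8a, Gdf7, Gdf11, Inha and Inhbb, had levels without stand-alone positions between 1.28% (Gdf11) and 2.95% (Bmp3). Their differences over all positions lay between -1.06 points (Bmp3) and 1.70 points (Bmp8a), and in all 7 the groups overlapped.

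The TGF-beta ligands and their binding proteins had 8 regions, 6 of them higher and 2 lower in exercised samples. Tgfb3, a TGF-beta isoform of palate and muscle development, had the smallest p of these. Its levels were 29.4%, 28.5% and 31.4% in exercised and 28.7%, 27.9% and 24.2% in sedentary samples, so the groups overlapped, and the difference was 2.87 points (SE 1.62, unadjusted p 0.224 by edgeR). It was 1.5 points without sedentary sample 3, 1.17 points without stand-alone positions and 1 point with positions weighted equally. Its region shares 481 bp with that of Ift43. Ltbp4, which binds latent TGF-beta and is a known modifier of muscular dystrophy in mice, had the highest level of the group, in its region of 19 positions: 33.4% ± 1.03 in exercised and 32.0% ± 2.50 in sedentary samples. The difference of 1.43 points was 0.228 points without sedentary sample 1 and 2.73 points without sedentary sample 2. Without stand-alone positions its level was 3.33%, while Ltbp2, a matrix protein of elastic fibres, kept 29.2%. The other regions were those of the ligands Tgfb1 and Tgfb2 and the binding proteins Ltbp1, Ltbp2, Ltbp3 and Ltbp4 (4 positions). Their differences lay between -0.897 points for Tgfb2 and 4.21 points (SE 4.87) for Ltbp4, and in each the groups overlapped.

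Among the 9 receptor regions, 5 were higher and 4 lower. Tgfbr1, the type I receptor of TGF-beta, had levels of 23.1%, 23.2% and 24.1% in exercised and 25.4%, 25.5% and 25.4% in sedentary samples. All exercised samples were below all sedentary ones, and the difference was -1.93 points (SE 0.315, unadjusted p 0.156 by edgeR). Without its 7 stand-alone positions the level was 1.40% ± 0.790 against 2.64% ± 0.99, and the groups overlapped. Acvr2a had levels of 19.7%, 19.2% and 18.1% in exercised and 20.1%, 19.8% and 19.8% in sedentary samples. These did not overlap either, with a difference of -0.883 points (unadjusted p 0.463 by edgeR). Without its 9 stand-alone positions the difference was 0.545 points, in the other direction. The levels were then 0.962%, 4.24% and 0.703% in exercised samples, against 1.43% ± 0.312 in sedentary ones. Exercised sample 2 was above all sedentary samples, and exercised samples 1 and 3 were below all of them.

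The Acvr2a stretch printed above shows where its reads lie. Its 4 CCGG cytosines averaged 59.0% ± 2.69 in exercised and 61.4% ± 3.55 in sedentary samples. Its 6 others averaged 3.26% ± 3.65 and 2.07% ± 0.326. The highest of these 6, at base 164 of the stretch, had 0%, 41.4% and 9.68% in exercised samples. In sedentary samples that cytosine had 0%, 2.63% and 5.13%. Acvrl1, a type I receptor of vascular endothelium that binds BMP9 and BMP10, had the highest level of the receptors. Its levels were 28.3%, 27.5% and 27.2% in exercised and 24.6%, 28.6% and 24.6% in sedentary samples, with a difference of 1.72 points (SE 1.37), which was 3.04 points without sedentary sample 2 and 1.04 points without sedentary sample 1. None of its 22 positions was stand-alone, and sedentary sample 2 was above all exercised samples. The other 6 receptor regions were those of the BMP receptors Bmpr1a and Bmpr2, the TGF-beta type II receptor Tgfbr2 and the activin receptor genes Acvr1, Acvr1b and Acvr2b. Their differences lay between -1.19 points for Acvr2b and 1.13 points for Acvr1, and the groups overlapped in all 6. Bmpr1a, with 135 positions the most densely measured of the 68, had 13.9% ± 1.80 in exercised and 13.0% ± 0.766 in sedentary samples, and 1.79% without stand-alone positions.

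Of the antagonists and modulators, Nog, which encodes the BMP antagonist noggin, had the smallest p. Its 81 positions had levels of 17.4%, 18.3% and 16.7% in exercised and 19.7%, 17.2% and 19.99% in sedentary samples. Sedentary sample 2 lay among the exercised samples, and the difference was -1.48 points (SE 0.994, unadjusted p 0.204 by edgeR). Without sedentary sample 2 it was -2.36 points and without sedentary sample 3 -0.967 points. Grem1, which encodes the BMP antagonist gremlin, had the highest level of the group, from 23.7% to 34.1% in exercised and 25.4% to 34.5% in sedentary samples. Over the 7 regions 4 were higher and 3 lower, and without stand-alone positions their levels were 2.75% to 6.68%. Chrdl2, a chordin-like protein, had the largest difference of the 7, 1.99 points (SE 3.04), with 12.9% to 18.9% in exercised and 10.6% to 19.0% in sedentary samples. Bmper, Chrd, Chrdl1 and Bmp1 had differences of -0.920 points (Chrd) to 1.502 points (Bmper), and the groups overlapped in all 7 regions.

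The 8 Smad regions were low throughout once stand-alone positions were left out, at 1.44% to 7.60%. Smad2, a receptor-activated Smad of the TGF-beta and activin branch, had the smallest p over all positions. Its 128 positions had levels of 14.7%, 15.2% and 12.4% in exercised and 12.4%, 12.5% and 13.2% in sedentary samples. Exercised samples 1 and 2 were above all sedentary ones and exercised sample 3 was not, with a difference of 1.40 points (SE 0.918, unadjusted p 0.128 by edgeR). Without exercised sample 3 it was 2.26 points (unadjusted p 0.00575 by edgeR), and without exercised sample 2 it was 0.848 points. Smad3, of the same branch, had the highest level, at 26.2% ± 1.91 and 26.0% ± 1.38. Smad1, which carries BMP signals, had 17.8% ± 0.453 and 18.2% ± 1.30. The common Smad, Smad4, the inhibitory Smad6 and Smad7, and Smad5 and Smad9 of the BMP branch had differences of -0.0908 points (Smad7) to 0.593 points (Smad5). In all 8 Smad regions the groups overlapped.

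Among the 13 regions grouped as FGF ligands by symbol, not by a check of function, 9 were higher and 4 lower. Fgf3, an FGF of inner ear and tooth development, had levels of 37.0%, 34.4% and 34.2% in exercised and 30.4%, 33.3% and 30.7% in sedentary samples. The groups did not overlap, and the difference was 3.71 points (SE 1.30, unadjusted p 0.0639 by edgeR). Without its 5 stand-alone positions the levels were 20.9%, 18.2% and 19.9% in exercised and 14.1%, 15.3% and 17.1% in sedentary samples. They did not overlap there either, with a difference of 4.17 points and an unadjusted p of 0.245 by edgeR.

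Fgf9, an FGF of lung, gonad and skeletal development, had the lower levels in exercised samples. Its 46 positions had levels of 17.9%, 18.6% and 18.1% in exercised and 19.8%, 20.6% and 19.6% in sedentary samples. The groups did not overlap, and the difference was -1.87 points (SE 0.355, unadjusted p 0.0670 by edgeR). All 13 of its positions at 10% or more were stand-alone. Without them the levels were 1.21% ± 0.411 and 2.28% ± 0.817, and the groups overlapped.

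Fgf6 had the highest level among the FGF ligands, and its printed stretch was methylated at both kinds of cytosine. Its 12 positions had levels of 45.2%, 53.2% and 49.3% in exercised and 47.5%, 50.4% and 49.7% in sedentary samples. The sedentary range lay inside the exercised one, and the difference was 0.0349 points (SE 2.46). All 12 cytosines had levels of at least 11.04%, none of them stand-alone. In the printed stretch the 4 cytosines outside CCGG averaged 36.4% ± 13.3 in exercised and 46.4% ± 11.1 in sedentary samples, also overlapping. The other FGF ligands at 10% or more without stand-alone positions were Fgf12 in its region of 3 positions (45.8%), Fgf8 (21.3%), Fgf3 (17.6%) and Fgf4 (10.7%). Fgf12 in its region of 67 positions was at 2.13%. Among FGF ligand regions other than Fgf3 and Fgf9 the groups overlapped in all 11, with differences from -0.934 points for Fgf2, a mitogen of satellite cells, to 6.23 points (SE 5.37) for the 3 positions of Fgf12.

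**Figure D4:**
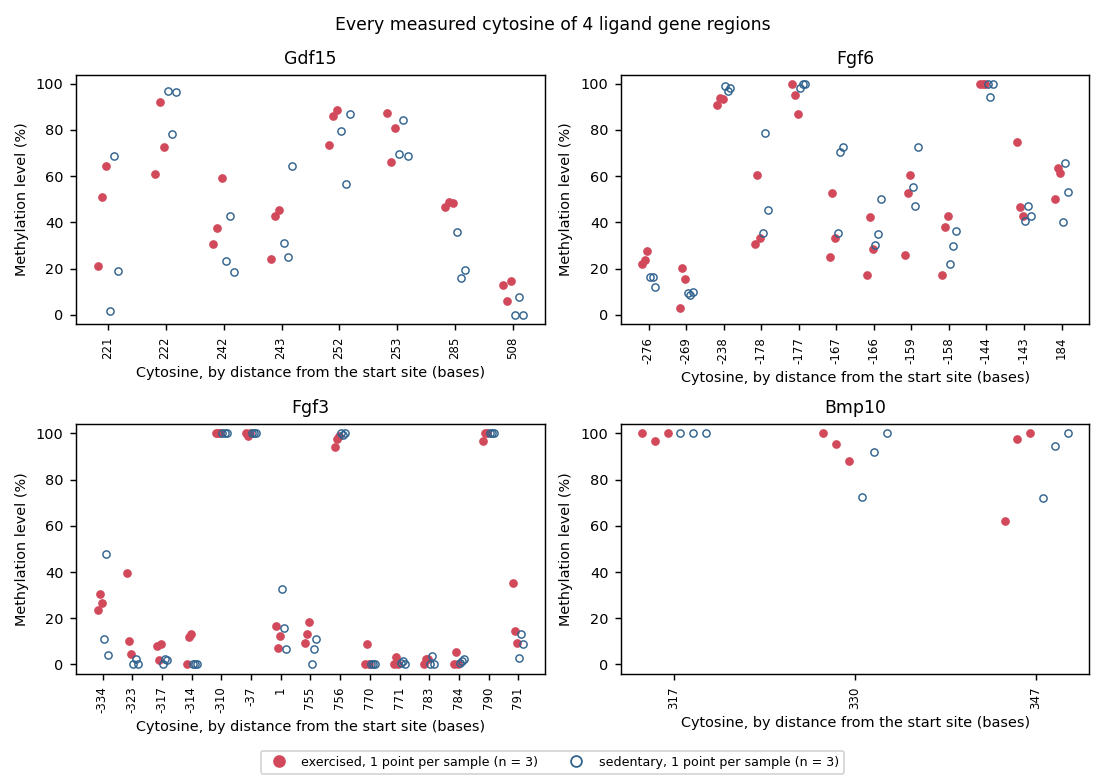
Methylation level (y axis, percent) of every measured cytosine in the regions of Gdf15, Fgf6, Fgf3 and Bmp10, 1 point per sample, with 3 exercised samples filled and 3 sedentary samples open. Cytosines are evenly spaced and labelled by their distance from the start site in bases, taken at 2000 bases into the region. In Gdf15, Fgf6 and Bmp10 most cytosines are methylated. In Fgf3 a few cytosines near 100% stand beside others under 20%, and the groups overlap at most cytosines of all 4 regions.

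The FGF receptors had 6 regions, 3 higher and 3 lower. Fgfr3, a receptor known for restraining bone growth, had 2 regions that share 2418 bp. The one with 4 positions had the smallest p of the group and the lowest level of all 68, with 2.22%, 1.47% and 0% in exercised and 5.17%, 1.62% and 10.2% in sedentary samples. The groups overlapped, with a difference of -4.44 points (SE 2.57, unadjusted p 0.156 by edgeR) at a mean coverage of 25.0 reads per position. Without sedentary sample 3 the difference was -2.17 points. The one with 30 positions had a difference of 1.58 points. Fgfr1, an FGF receptor of muscle precursor cells, had the highest level of the group, at 24.8% ± 0.875 and 25.0% ± 0.818, and 2.35% without stand-alone positions. Fgfr2, Fgfr4 and the kinase-less receptor Fgfrl1 had differences of -0.597 points (Fgfrl1) to 2.77 points (Fgfr2). Fgfr2 ranged from 10.9% to 22.4% within the exercised samples alone, and in all 6 regions the groups overlapped.

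The rule also took 2 genes that were given none of the roles above. Fgfr1op2 is named for a fusion partner of Fgfr1. Its 3 positions had levels of 38.9%, 38.6% and 39.1% in exercised and 44.5%, 44.1% and 38.4% in sedentary samples. Sedentary sample 3 was below all exercised samples, and the difference was -3.43 points (SE 1.998, unadjusted p 0.268 by edgeR), or -5.42 points without sedentary sample 3. Bmp2k, printed above, had 17.9% ± 2.19 and 17.6% ± 0.599 over 88 positions.

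Leaving out stand-alone positions gave other genes the smallest p. Of the 68 regions, 3 then had an unadjusted p under 0.05, against 4.33% of all regions (3.28% higher and 1.05% lower), and 0 an adjusted one. Fgf16, an FGF on the X chromosome, had levels over 8 positions of 2.35%, 6.02% and 4.07% in exercised and 0.505%, 1.01% and 0.694% in sedentary samples, with an unadjusted p of 0.00484 by edgeR. Over all its positions, at a mean coverage of 25.9 reads, Fgf16 had 17.8% ± 2.79 and 16.5% ± 0.621 (unadjusted p 0.488 by edgeR). Smad1 had 1.48% ± 0.250 and 2.77% ± 0.828 (unadjusted p 0.0244 by edgeR). Smad9, another Smad of the BMP branch, had 1.13% ± 0.983 and 3.58% ± 1.93 over 6 positions (unadjusted p 0.0499 by edgeR). This difference of -2.45 points had the other sign over all positions, at 0.146 points (unadjusted p 0.978 by edgeR). The groups of Fgf16 and Smad1 did not overlap and those of Smad9 did. In all, the groups did not overlap in 6 regions (8.99% of all regions). Exercised samples lay above in Gdf15, Fgf3, Fgf16 and Fgf18 (6.25% of all regions) and below in Smad1 and Tgfb2 (2.74%).

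No single cytosine passed the test either. Of the 2629 member positions 2484 could be tested, and 0 had an adjusted p under 0.05 by edgeR (percent called over all 253960 positions, 0), with a smallest adjusted p of 0.919. At an unadjusted p under 0.05 there were 87 (3.50%), 50 higher and 37 lower, against 3.32% of all positions (1.9% higher and 1.41% lower). The split by direction was not stable: it was 19 higher and 50 lower without sedentary sample 2, 48 and 62 by limma on M values, and 30 and 30 at a coverage of 20. Other settings kept more higher than lower positions, with 53 and 28 by limma on the percent level and 35 and 16 without exercised sample 3. Of the member positions 86 had a p under 0.05 in the authors' deposited table, or 3.46% against 3.13% of all positions. The classes of that table hold 58 member positions as higher and 28 as lower. It puts 6 member positions in its strong classes, 0.242% of the tested member positions against 0.211% of all.

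Those 6 cytosines were divided 3 to 3 by direction. The authors' deposited table gives differences of 24.2 points for Gdf15, 21.9 points for Chrd and 24.9 points for Smad1. In the same authors' deposited table Fgf9 has -25.8 points, Acvrl1 -21.3 points and a further cytosine of Chrd -33.8 points. The cytosines of Chrd, the gene of the BMP antagonist chordin, lie at positions 20732996 and 20733029 of chromosome 16 (mm9) and have opposite signs. The Chrd region shares 615 bp with that of Thpo. Read by sample, the Fgf9 cytosine had 31.7%, 48.6% and 38.1% in exercised and 62.9%, 66.7% and 66.2% in sedentary samples, and it was stand-alone. All exercised samples were below all sedentary ones, and edgeR gave an unadjusted p of 0.124.

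The cytosines with the smallest p by edgeR and a mean coverage of 20 or more were mostly ones where 1 group was at or near 0. Higher in exercised samples was a cytosine of Bmp2k inside the printed stretch, outside CCGG, with 14.6%, 9.09% and 13.3% against 0% in all 3 sedentary samples (unadjusted p 0.00541, adjusted p 0.919 by edgeR). For Fgf3 a cytosine 323 bases before the start site had 39.5%, 10% and 4.44% against 0%, 2.27% and 0%. In both the groups did not overlap, and in Fgf3 the difference of 17.2 points was 6.46 points without exercised sample 1. Bmp1, the protease that cleaves chordin, had a cytosine with 11.1%, 8.85% and 8% against 2.25%, 0% and 0%. The cytosines of Fgfr4 and of a further Fgf3 position had 0% in 1 exercised sample and in all sedentary samples.

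Lower in exercised samples were cytosines of Bmp8a, Smad1, Bmp2, Ltbp1 and Bmp1, each at 0% in all 3 exercised samples. The Bmp8a cytosine had 2.56%, 10.2% and 28.0% in sedentary samples (unadjusted p 0.00243, adjusted p 0.919 by edgeR), a difference of -13.6 points that was -6.38 without sedentary sample 3. The Smad1 cytosine had 8.33%, 20.6% and 1.28%, a difference of -10.1 points that was -4.81 without sedentary sample 2, and the Ltbp1 cytosine 7.14%, 5.56% and 13.0%. In these 3, which were picked by their p, the groups did not overlap. The Bmp2 cytosine had 0%, 4.65% and 28.2%, and its difference of -10.95 points was -2.33 points without sedentary sample 3. The Bmp1 cytosine had 18.7% in sedentary sample 1 and 0% in the other 5 samples.

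Other genes of the pathways gave no call past the adjusted threshold either. From lists of 42 further TGF-beta and BMP genes and 29 further FGF genes, 27 and 23 had a region, 52 regions in all. None had an adjusted p under 0.05 by edgeR (percent called over all regions, 0), and 1 had an unadjusted one, in the lower direction, where 0.908% of all regions did. It was Frs3, an adaptor of FGF receptors, with 5.67%, 9.05% and 7.49% in exercised and 12.8%, 9.22% and 8.78% in sedentary samples (difference -2.86 points, SE 1.61, unadjusted p 0.0401 by edgeR). Exercised sample 2 lay within the sedentary range. Its difference was 0.0692 points when positions were weighted equally and -1.60 points without sedentary sample 1.

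Exercised samples had the higher mean in 30 of these 52 regions and the lower in 22, and the median difference was 0.20 points. Bambi, a decoy receptor that blocks TGF-beta and BMP signals, had 26.5% ± 2.54 in exercised and 23.2% ± 0.833 in sedentary samples, without overlap (unadjusted p 0.0681 by edgeR), a difference of 1.80 points without exercised sample 1 in place of 3.22, and a level of 1.52% without stand-alone positions. Sos1, the exchange factor that loads Ras, had 13.2% ± 1.14 and 11.9% ± 0.565, a difference of 1.30 points that was 0.857 without exercised sample 1. Frs2, the main docking protein of FGF receptors, had 13.2% ± 0.907 and 14.7% ± 1.87, a difference of -1.51 points. Leaving out sedentary sample 1 gave -0.796 points, and leaving out sedentary sample 2 gave -2.57. In Sos1 and Frs2 the groups overlapped.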

How the data were processed

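Reads were processed with Trim Galore 0.2.5, cutadapt 1.0, Bismark 0.7.7 and Bowtie 0.12.9 on mm9, per the submitters' processing notes, which name no settings here. Per cytosine and sample the authors deposited a methylated fraction and a coverage count of at least 10, and per position a p-value, a difference and a class. Fraction times coverage was whole within 0.00236 of a read, which gave methylated counts.

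Methylated and unmethylated counts, per position and summed per region, were tested with edgeR 4.0.16 (R 4.3.3) by quasi-likelihood, with a term per sample and one for exercise, and Benjamini-Hochberg adjustment at 0.05 over the whole table. Positions with no methylated or no unmethylated read were not tested. Alternatives included limma 3.58.1 and pooled reads under Fisher's exact test. Tested on simulated data for exercised against sedentary (10021 regions, 50 changed per size), the region test called 24% of shifts of 5 points, 80% of 10, 94% of 15 and 98% of 20. The simulated spread between samples was a fixed setting that was not estimated from these data, so these shares may not hold for them. Of the unchanged simulated regions 4.72% had an unadjusted p under 0.05 by edgeR, against 2.37% of the real regions. Reads may not be independent molecules.

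Symbols and promoter sequences came from RefSeq tables (GRCm38.p6); data coordinates are mm9. Promoters were placed where at least 6 measured positions all fell on a CpG, with a lead of 3 positions over any other placement. Members and gene lists were chosen with earlier results of these data known. Named regions were the 5 smallest p-values per direction, the highest level and smallest p per role, levels of 50% or more, and 2 other pathway genes per direction; named positions were the 5 smallest p-values per direction. Acvr2a, Bmp2k, Ltbp2 and genes named only for values without stand-alone positions were chosen after their values were seen.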

Additional observations from a re-analysis of the deposited data

How the results depend on the processing

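The count of member regions past an adjusted p of 0.05 stayed at 0 with a coverage of at least 20, at least 5 positions, both limma fits, positions weighted equally, without the highest coverage, without stand-alone positions by either rule (median or average of the other positions) and with each sample left out (0 to 0). Fisher's exact test on pooled reads, which does not hold the spread between samples, gave 8 (11.8%), against 6.68% of all regions. The counts for member positions and for other pathway genes also stayed at 0 with each sample left out (0 to 0). The median difference of the members was 0.199 to 0.894 with 1 sample left out, lowest without exercised sample 1 and highest without exercised sample 3, and 0.0513 points with positions weighted equally. Without exercised sample 3, 7 member regions had an unadjusted p under 0.05, all higher (10.3%), against 5.29% of all regions; with all samples it was 1.

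Replicate numbers did not pair the samples: same-numbered deviations correlated at 0.0021, -0.24 and -0.0834. With the replicate number as a block, 0 regions and 0 positions passed the adjusted threshold, the median difference was 0.552 points, and 10 member positions were higher and 10 lower at an unadjusted p under 0.05, against 50 and 37.

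Some differences changed sign. Leaving out stand-alone positions turned the sign in Acvr2a and in other regions, among them Bmp2, Gdf7, Smad9, Tgfbr2 and Ltbp1. With 1 sample left out, Bmp10 ranged from -4.45 to 4.85 points (below 0 without exercised 2, exercised 3 or sedentary 1), Grem1 from -1.86 to 3.61 (exercised 2, exercised 3 or sedentary 2), Smad3 from -0.880 to 1.01 (exercised 1, sedentary 1 or sedentary 3) and Fgf6 from -1.93 to 2.04 (exercised 2, exercised 3 or sedentary 1). Fgfr1 ranged from -0.739 to 0.123 (above 0 without exercised 1, exercised 3 or sedentary 2). With positions weighted equally Grem1 was -0.0327, Fgf6 -2.57 and Frs3 0.0692. At a coverage of 20 Smad3 was -0.201, Fgfr1 0.196 and Acvrl1 -1.21. The cause was not tested. With 3 samples per group the simulated test missed most shifts of 5 points.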
